A study of Mus musculus with 4 samples.

Results

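The genes described here serve 2 linked programmes, the supply of amino acids and the response to stress in the endoplasmic reticulum (ER). They were chosen by name, as 40 gene symbols, and each matched 1 of the 23356 gene rows of the deposited table. The choice was made with earlier results of these data known. Of the 40, 28 belong to amino acid supply, with the transcription factor ATF4 and the genes around it, and 12 to the unfolded protein response. RNA came from Th17 cells, CD4 T cells that make IL-17, grown for 48 h in culture. The cells were from wild-type C57BL/6 mice aged 6 to 8 weeks. In 2 libraries the cells had received vehicle (treatment label "none"), and in 2 they had received recombinant murine SAA1, a serum amyloid A protein of the acute phase, at a labelled dose of 2 ng/ml. The labels used here do not say how the cells were isolated and polarised.

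Cells that run short of amino acids, or whose ER fills with unfolded protein, phosphorylate the translation factor eIF2α. Most translation then slows, while the mRNA of ATF4 is translated more, and ATF4 raises genes for amino acid uptake and synthesis. ER stress also acts through IRE1, which splices the mRNA of XBP1, and through ATF6, and both raise ER chaperones and degradation factors. Activated T cells take up large amounts of amino acids to grow and divide, and cells that secrete cytokines fold those proteins in the ER.

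Levels are in FPKM, the authors' measure of fragments scaled to transcript length and to all fragments mapped, so levels can be compared between genes per length. The table gives 1 value per group and none per library, so no spread between libraries can be shown, and the number of reads is unknown. Nothing in the labels says that the libraries of a group came from separate cultures or mice, so the p-values may measure technical spread only. Each difference is a log2 ratio of SAA1 over vehicle, with the standard error (SE) that the test statistic in the authors' deposited table implies. A gene is called where the adjusted p of that table is under 0.05. The marker genes of T cells and Th17 cells were present: all 8 T cell markers and all 6 Th17 markers reached 1 FPKM. Among markers of other cells, 1 of 6 for B cells, 1 of 9 for myeloid and dendritic cells and 1 of 7 for fibroblasts did so. The one for myeloid and dendritic cells was Ctss, at 37.2 FPKM with vehicle and 34.5 with SAA1. The fibroblast gene Lum was the one of its list above 1 FPKM, and the list's summed level was 22.3 FPKM with vehicle and 6.39 with SAA1. Of the markers of CD8 T and natural killer cells, 2 of 5 reached 1 FPKM. They were Nkg7, at 33.5 FPKM with vehicle and 31.4 with SAA1, and Cd8b1, at 4.32 and 4.24 FPKM. Of 5 erythroid genes, 2 had no row, and 0 of the other 3 reached 1 FPKM. Of 5 markers of plasma cells, which carry a heavy secretory load, Prdm1, Igj and Tnfrsf17 were each under 1 FPKM in both groups. The others were Irf4, which activated T cells also express, at 160 and 168 FPKM, and Sdc1, at 5.10 and 6.17 FPKM. The part of other cells in the results below was not tested.

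Amino acid supply held all of the calls. Of the 40 genes, 4 rose with SAA1 by the adjusted p that Cuffdiff gave in the authors' deposited table, and 0 fell. They were Gpt2, Slc1a4, Slc38a2 and Psph, each 1.40 to 1.54 times its vehicle level. In bulk RNA, more cells that express a gene and more of its RNA per cell cannot be told apart. That is 10.0% of the members, beside 6.52% called among all 11481 tested rows, made up of 3.97% higher and 2.55% lower with SAA1. At an unadjusted p under 0.05 of the authors' deposited table, 9 of the 40 differed, 8 higher and 1 lower, against 15.8% of all tested rows. Within amino acid supply 4 of 28 were called, and within the unfolded protein response 0 of 12, where 0 also had an unadjusted p under 0.05. The rest of the 40, 36 genes, were not called. No test of one programme against the other was made.

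The count depended on the threshold and on how p was taken. At an adjusted p under 0.1 by the authors' deposited table, Shmt2 and Slc7a3 joined them, making 6 of 40 against 8.81% of all tested rows. At an adjusted p under 0.01 by the authors' deposited table, 2 of 40 (5.0%) were called, Gpt2 and Slc1a4, against 3.80% of all. With a fold of at least 1.5 required as well as an adjusted p under 0.05, Gpt2 was the 1 call of 40 (2.5%), below the 4.69% of all tested rows. The 4 calls were the same genes when the adjustment covered rows with at least 1 FPKM, where 6.56% of all were called, and when rows that share a locus were left out, where 7.84% were. When p was instead read from the normal distribution, two-sided, at the authors' test statistic and adjusted over all rows that have one, 0 of the 40 were called, against 2.17% of all. For the 40 members that p is larger than the one Cuffdiff gave, and the setting behind the difference is unknown. For rows with the largest statistics the order reverses, since no p that Cuffdiff gave is below 5e-05.

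**Figure D1:**
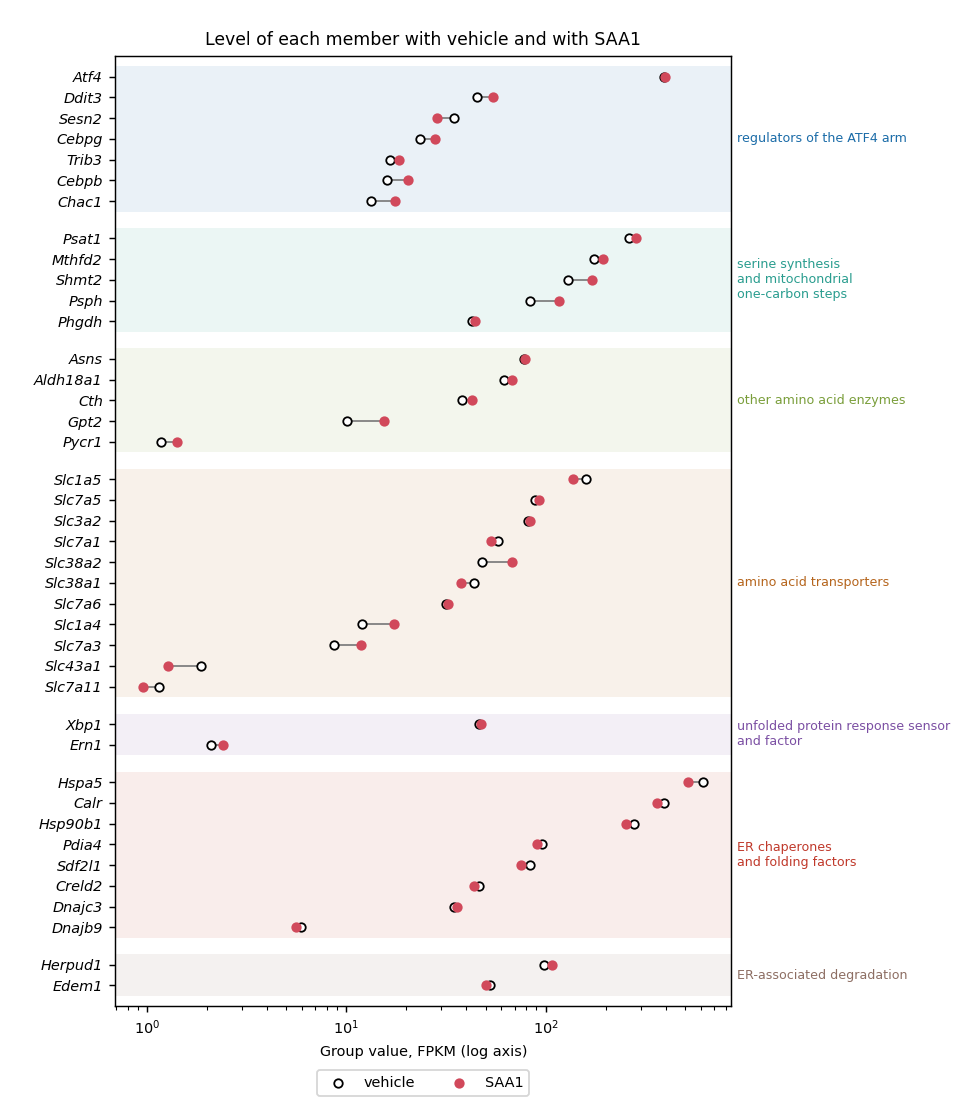
Level of each of the 40 genes with vehicle (open points) and SAA1 (filled points), in FPKM on a log axis, by role. Hspa5 is the highest gene in both groups, at 618 and 518 FPKM, and Slc7a11 the lowest, at 1.14 and 0.959.

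Levels spanned a wide range. All 40 genes were tested and all reached 1 FPKM in at least 1 group. With vehicle the lowest was Slc7a11 at 1.14 FPKM, the median of the 40 was 46.4 FPKM and the highest was Hspa5 at 618 FPKM. With SAA1 the same 2 genes bounded the range, at 0.959 and 518 FPKM, and the median was 48.6 FPKM. For comparison, the median vehicle level over the 10701 rows with at least 1 FPKM in either group was 15.9 FPKM. The 5 highest genes were Hspa5, Calr, Atf4, Hsp90b1 and Psat1 with vehicle and the same 5 with SAA1, where Atf4 stood above Calr and Psat1 above Hsp90b1. No spread of a level is given, so neighbours in this order could not be tested against each other.

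The first role is that of the regulators. Atf4 itself, the factor that binds the promoters of the supply genes, was among the most abundant transcripts, above 99.2% of all rows. It was at 394 FPKM with vehicle and 397 with SAA1, a log2 ratio of 0.01 ± 0.20 (SE) with a 95% interval of -0.38 to 0.41. ATF4 is set largely by translation, which RNA does not show. Its partner Cebpg, which pairs with ATF4 on DNA, was at 23.6 and 27.7 FPKM (log2 ratio 0.24 ± 0.20, adjusted p 0.44 by the authors' deposited table). Cebpb, a related factor of the C/EBP family, was at 16.0 and 20.5 FPKM (0.35 ± 0.24, adjusted p 0.25 by the authors' deposited table).

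The ATF4 targets placed among the regulators, Chac1, Trib3, Ddit3 and Sesn2, were not called either, and all of the calls lay in other roles of amino acid supply. Chac1, an enzyme that breaks down glutathione, was at 13.3 and 17.6 FPKM, a log2 ratio of 0.40 ± 0.23 with an adjusted p of 0.14 by the authors' deposited table. Trib3, a pseudokinase that restrains ATF4, was at 16.6 and 18.3 FPKM (log2 ratio 0.15 ± 0.22). Ddit3, the stress factor CHOP, was at 45.1 and 54.7 FPKM, and its SE of 0.56 was the largest of the 40 genes. Its row shares a locus with Mars, the methionyl-tRNA synthetase gene, at 103 and 120 FPKM, so reads of either may be counted for the other. Sesn2, a stress-induced inhibitor of the growth kinase mTORC1, was the one regulator with a lower value under SAA1, at 34.8 and 28.7 FPKM (log2 ratio -0.28 ± 0.21, adjusted p 0.32 by the authors' deposited table). Of the 7 regulators, then, 0 were called and 6 had a ratio above 1, with a median log2 ratio of 0.24. By unadjusted p under 0.05, Cebpb and Chac1 were the 2 that differed.

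The serine pathway makes serine from a glycolytic intermediate in a chain of enzymes, Phgdh, Psat1 and Psph, and mitochondria then draw one-carbon units from it through Shmt2 and Mthfd2. Psph, the phosphatase of the last step to serine, rose from 83.6 to 117 FPKM. Its log2 ratio was 0.48 ± 0.20, with a 95% interval of 0.09 to 0.88 and an adjusted p of 0.017 by the authors' deposited table. Shmt2, which splits serine into glycine and a one-carbon unit, had the next largest ratio, at 129 and 170 FPKM (0.40 ± 0.20), and was not called, with an adjusted p of 0.065 by the authors' deposited table. Its row shares a locus with the weakly expressed Ndufa4l2, at 0.724 and 0.896 FPKM.

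The earlier steps and the last showed smaller differences. Phgdh, which commits carbon to serine, was at 43.0 and 44.3 FPKM (log2 ratio 0.05 ± 0.20), and Psat1, the aminotransferase after it and the most abundant of the 5, at 264 and 286 FPKM (0.12 ± 0.20). Mthfd2, a mitochondrial folate enzyme prominent in dividing cells, was at 176 and 193 FPKM (0.14 ± 0.20). All 5 genes had a ratio above 1, 1 was called, and their summed level was 695 FPKM with vehicle and 810 with SAA1. The steps on either side of Psph in the pathway were therefore not called while Psph was, and the difference between Psph and its neighbours was not tested.

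Among the other enzymes of amino acid synthesis, Gpt2 had the largest difference of the 40 genes. It encodes the mitochondrial alanine aminotransferase, which moves an amino group between glutamate and alanine. Gpt2 rose from 10.1 to 15.5 FPKM, or 1.54-fold. Its log2 ratio was 0.62 ± 0.21, with a 95% interval of 0.20 to 1.04 and an adjusted p of 0.0059 by the authors' deposited table. Asns, the asparagine synthetase and a standard readout of ATF4, was nearly level at 78.4 and 79.1 FPKM (log2 ratio 0.01 ± 0.20, interval -0.38 to 0.41). Cth, which releases cysteine from cystathionine, was at 37.9 and 43.0 FPKM (0.18 ± 0.21).

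Proline synthesis was represented by Aldh18a1, which makes its precursor, and Pycr1, which reduces the cyclic intermediate to proline. Aldh18a1 was at 61.7 and 68.2 FPKM (log2 ratio 0.14 ± 0.20) and Pycr1 at only 1.17 and 1.42 FPKM (0.28 ± 0.35). All 5 enzymes of this role had a ratio above 1, with a median log2 ratio of 0.18, and Gpt2 alone was called.

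**Figure D2:**
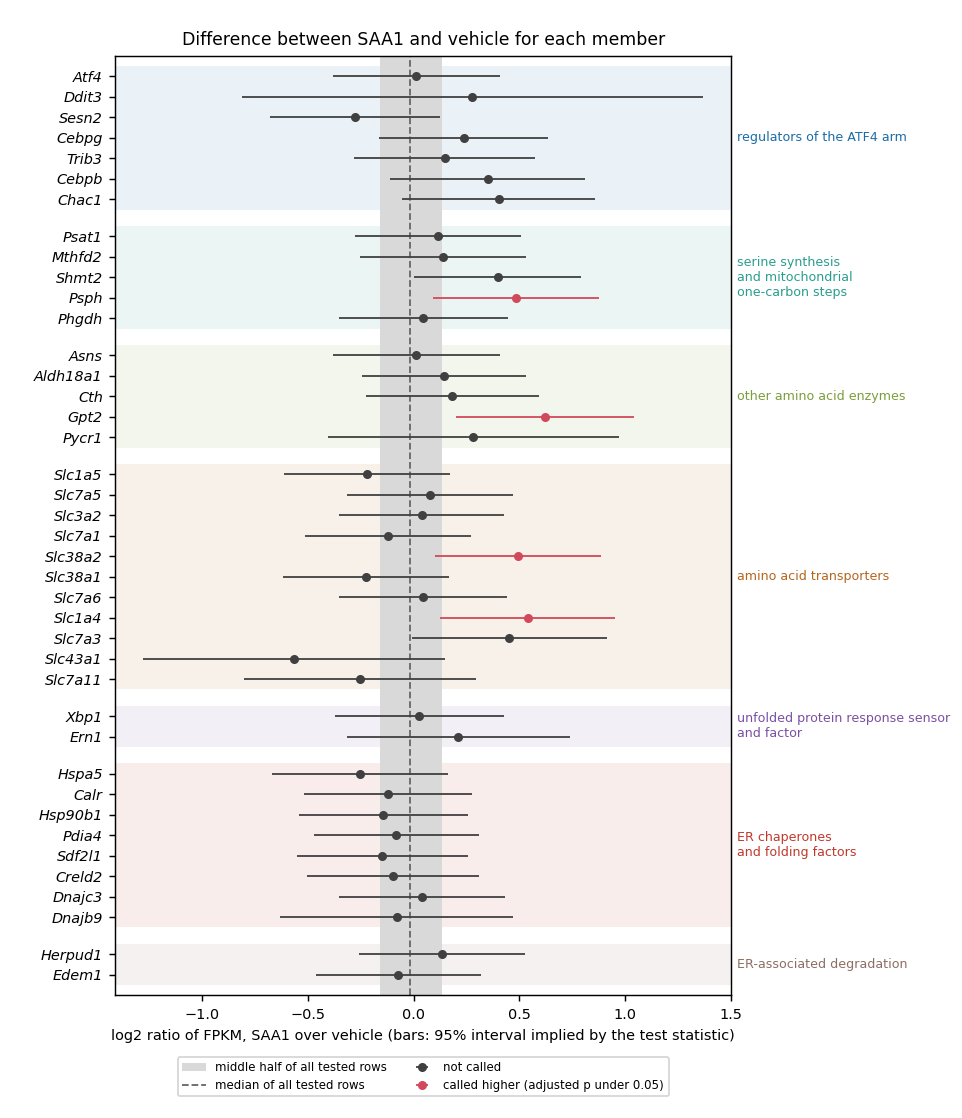
The log2 ratio of SAA1 over vehicle for each of the 40 genes, with the 95% interval implied by the test statistic. The 4 called genes (red) are all in the amino acid supply roles, and 7 of 8 ER chaperones lie below 0 with intervals that span it.

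The 11 amino acid transporters went in both directions, with 6 ratios above 1 and 5 below, and their summed level was 534 FPKM with vehicle and 536 with SAA1. Both calls were carriers of small neutral amino acids that depend on sodium. Slc38a2 (SNAT2), which imports glutamine, alanine and similar amino acids, rose from 48.1 to 67.6 FPKM, a log2 ratio of 0.49 ± 0.20 with an interval of 0.10 to 0.88 and an adjusted p of 0.012 by the authors' deposited table. Slc1a4 (ASCT1), an exchanger of alanine, serine and cysteine, rose from 11.96 to 17.4 FPKM, a log2 ratio of 0.54 ± 0.21 with an interval of 0.12 to 0.95 and an adjusted p of 0.0092 by the authors' deposited table.

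Their closest relatives in the list had values on the other side. Slc38a1 (SNAT1), a glutamine carrier of the same family as Slc38a2, was at 43.9 and 37.5 FPKM (log2 ratio -0.22 ± 0.20, adjusted p 0.48 by the authors' deposited table). Slc1a5 (ASCT2), the glutamine exchanger of the Slc1a4 family and the most abundant transporter of the 11, was at 160 and 137 FPKM (-0.22 ± 0.20, adjusted p 0.49 by the authors' deposited table). With vehicle Slc38a2 and Slc38a1 stood close together, at 48.1 and 43.9 FPKM, and with SAA1 they stood further apart, at 67.6 and 37.5 FPKM. Whether the members of each pair differed in their response was not tested.

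Large neutral amino acids such as leucine enter through LAT1, a complex of Slc7a5 with the heavy chain Slc3a2 (CD98). The 2 chains had similar levels, Slc7a5 at 88.1 and 92.9 FPKM and Slc3a2 at 81.7 and 83.9, with log2 ratios of 0.08 ± 0.20 and 0.04 ± 0.20. Slc7a6, another light chain that joins Slc3a2, was at 31.5 and 32.5 FPKM (0.05 ± 0.20). The light chain for cystine uptake, Slc7a11, was close to the floor of expression at 1.14 and 0.959 FPKM. Slc43a1 (LAT3), a carrier of large neutral amino acids that needs no heavy chain, was also low, at 1.87 and 1.27 FPKM. It had the most negative log2 ratio of the 40 genes, -0.56 ± 0.36, with an adjusted p of 0.22 by the authors' deposited table, and was the single gene of the 40 with an unadjusted p under 0.05 and a lower value.

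Arginine and lysine enter through cationic carriers, of which 2 were listed. Slc7a1 (CAT1) was at 57.6 and 52.95 FPKM (log2 ratio -0.12 ± 0.20). Slc7a3 (CAT3), less abundant, was at 8.65 and 11.8 FPKM (0.45 ± 0.23), had an adjusted p of 0.083 by the authors' deposited table and was not called.

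The unfolded protein response held no call among its 12 genes, beside 6.52% called among all tested rows. Ern1, which encodes the sensor IRE1, was at 2.09 and 2.42 FPKM (log2 ratio 0.21 ± 0.27, adjusted p 0.70 by the authors' deposited table). Its target Xbp1 was at 46.3 and 47.2 FPKM (0.03 ± 0.20). The table counts whole genes, so the spliced form of Xbp1, which encodes the active factor, cannot be told from the unspliced form.

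The 8 ER chaperones had a summed level of 1559 FPKM with vehicle and 1384 with SAA1, led by Hspa5, and a median of 89.6 and 82.9 FPKM. The median of the 5 serine pathway genes was higher, at 129 and 170 FPKM. Hspa5 (BiP), the main chaperone of the ER and the standard readout of this response, was at 618 and 518 FPKM, a log2 ratio of -0.26 ± 0.21 with a 95% interval of -0.67 to 0.16 and an adjusted p of 0.42 by the authors' deposited table. Hsp90b1 (GRP94), an ER chaperone of the HSP90 family, was at 279 and 253 FPKM (-0.14 ± 0.20). Calr, the lectin chaperone calreticulin, was at 395 and 363 FPKM (-0.12 ± 0.20).

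The remaining folding factors differed by less than their SE. Sdf2l1, a cofactor of BiP, was at 83.1 and 75.0 FPKM (log2 ratio -0.15 ± 0.21), Pdia4, a disulfide isomerase, at 96.0 and 90.7 (-0.08 ± 0.20), and Creld2, an ER stress-induced folding factor, at 46.6 and 43.5 (-0.10 ± 0.21). The locus of Pdia4 also holds the row of the microRNA gene Mir704, listed at 0 with vehicle and at 204 FPKM with SAA1 and not called, so reads of either may be counted for the other. Of the co-chaperones of BiP, Dnajb9 was at 5.93 and 5.60 FPKM (-0.08 ± 0.28) and Dnajc3 at 34.9 and 35.8 (0.04 ± 0.20), the only one of the 8 with a ratio above 1. For ER-associated degradation, which exports misfolded proteins for destruction, Herpud1 was at 98.2 and 107.8 FPKM (0.13 ± 0.20) and Edem1 at 52.6 and 49.97 (-0.07 ± 0.20).

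Both programmes can be set beside all tested rows as counts and medians. Of the 28 genes of amino acid supply, 22 had a ratio above 1 and the median log2 ratio was 0.14. Of the 12 genes of the unfolded protein response, 4 did, and the median was -0.08. Over all tested rows the median was -0.02, the lower and upper quartiles were -0.16 and 0.13, and 46.8% had a ratio above 1. The summed level of the supply genes was 1961 FPKM with vehicle and 2118 with SAA1, and that of the response genes 1758 and 1592 FPKM. These sums are led by a few abundant genes, Atf4 and Psat1 in the first and Hspa5, Calr and Hsp90b1 in the second. The members were picked by name, with earlier results of these data known, and share regulators, so these counts describe them only.

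The 95% intervals rest on the SE, whose median over the 40 genes was 0.20 on the log2 scale. They treat the test statistic as normal, while for these genes the p-values of Cuffdiff are smaller than the normal ones. For 5 of the 40 genes the interval lay above 0 and for 0 below it, while 9 had an unadjusted p under 0.05 by Cuffdiff. The 95% interval of the log2 ratio lay wholly inside a 1.5-fold change in either direction for 9 of the 12 response genes and for 11 of the 28 supply genes. For Atf4 and Asns it reached at most 0.41 in either direction. Among the 8 ER chaperones, the intervals reached from -0.67, for Hspa5, to 0.47, for Dnajb9.

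**Figure D3:**
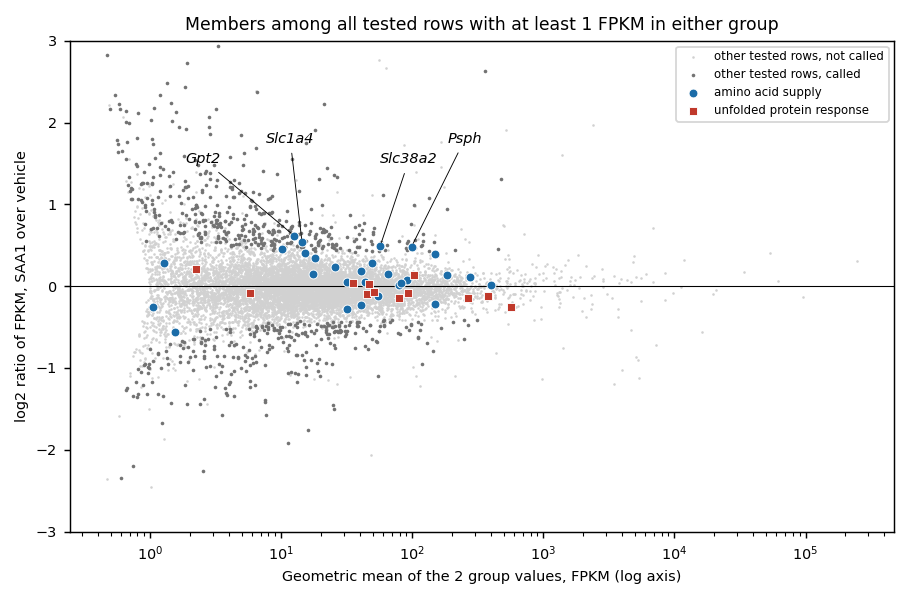
The log2 ratio of SAA1 over vehicle against mean level for the 40 genes (blue circles and red squares) and 10558 other tested rows with at least 1 FPKM (grey, darker where called); 13 rows lie beyond the axis. The 4 called members lie at log2 ratios of 0.48 to 0.62.

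The promoters of the 40 genes were read for the DNA elements through which these programmes are known to act. RefSeq windows, on GRCm38.p6, run from 250 bases before the transcription start to 50 after it, and 35 of the 40 genes had one (Slc1a5, Slc7a5, Slc38a1, Slc7a3 and Cth had none). The first element is the C/EBP-ATF response element, CARE, which ATF4 binds with a C/EBP partner, searched as TGATGNAA. The second is the ER stress response element, ERSE, bound by ATF6 with NF-Y, searched as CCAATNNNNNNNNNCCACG. The third is its variant ERSE-II, searched as ATTGGNCCACG. Both strands were searched with no mismatch allowed, N being any base, and no match overlapped another. The ERSE and ERSE-II strings share their parts in different orders and spacing. A match is a string of letters and not a measured binding site.

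Exact matches were found in 12 of the 35 genes. CARE was found in 6 of 23 supply genes with a window, Trib3, Chac1, Asns, Pycr1, Slc7a11 and Slc1a4, and in 1 of 12 response genes, Herpud1, beside 4.51% of all 27025 genes with a window (3.97% of 32851 windows, since a gene can have several). ERSE was found in 5 of the 12 response genes, all of them among the 8 ER chaperones (Hspa5, Dnajc3, Hsp90b1, Calr and Creld2), in 0 of the 23 supply genes and in 0.137% of all genes (0.119% of windows). ERSE-II was found in Herpud1 and in 0.0444% of all genes (0.0365% of windows). The other 17 of 23 supply genes held none of the 3 strings, and whether the programmes differ in them was not tested. Of the 12 genes with any match, 1 was called, Slc1a4, while Gpt2, Psph and Slc38a2 held none in this window.

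The stretch before the start of Slc1a4 is shown since it is the called gene with an element, and that of Hspa5 since it is the most abundant member. They read 5′ to 3′ on the gene's strand, with the matches in capitals, and the Slc1a4 match, CARE on the opposite strand, runs across the start from base -4 to base 4. In Hspa5, ERSE runs from base -65 to base -47.
Slc1a4, chr11:20332710-20332963, minus strand: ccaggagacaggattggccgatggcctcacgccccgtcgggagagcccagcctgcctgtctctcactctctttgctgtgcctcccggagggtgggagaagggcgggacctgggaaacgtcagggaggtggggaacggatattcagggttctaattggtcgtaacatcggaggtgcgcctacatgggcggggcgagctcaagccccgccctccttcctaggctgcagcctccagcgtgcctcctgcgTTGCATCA
Hspa5, chr2:34771840-34772089, plus strand: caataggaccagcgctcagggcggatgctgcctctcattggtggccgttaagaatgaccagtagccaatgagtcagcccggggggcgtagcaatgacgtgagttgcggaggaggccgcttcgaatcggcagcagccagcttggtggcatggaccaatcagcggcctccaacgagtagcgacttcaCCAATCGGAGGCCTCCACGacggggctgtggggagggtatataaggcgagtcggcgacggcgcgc

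Shorter stretches show CARE in supply genes whose values were not called, so that the letters can be compared with those of Slc1a4. Slc7a11 holds it on both strands, and the match in Trib3 lies after the start, from base 15 to base 22.
Chac1, chr2:119351029-119351076, plus strand: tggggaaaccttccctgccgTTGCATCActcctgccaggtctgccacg
Asns, chr6:7693210-7693252, minus strand: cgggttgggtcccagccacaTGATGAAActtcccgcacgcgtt
Pycr1, chr11:120643824-120643871, minus strand: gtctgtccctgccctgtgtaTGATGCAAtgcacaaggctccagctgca
Slc7a11, chr3:50443633-50443699, minus strand: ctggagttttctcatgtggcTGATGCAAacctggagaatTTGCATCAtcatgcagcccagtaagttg
Trib3, chr2:152344028-152344057, minus strand: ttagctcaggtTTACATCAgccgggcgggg

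The response genes with ERSE are shown the same way, and Hsp90b1 holds a copy on each strand. Herpud1 is the one gene with an element of each programme, CARE first and ERSE-II after it. Herpud1 was at 98.2 and 107.8 FPKM, and the 5 genes with ERSE had log2 ratios of -0.26 for Hspa5, -0.14 for Hsp90b1, -0.12 for Calr, -0.10 for Creld2 and 0.04 for Dnajc3, none of them called.
Dnajc3, chr14:118937807-118937865, plus strand: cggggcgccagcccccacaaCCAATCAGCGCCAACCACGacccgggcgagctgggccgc
Hsp90b1, chr10:86705513-86705676, minus strand: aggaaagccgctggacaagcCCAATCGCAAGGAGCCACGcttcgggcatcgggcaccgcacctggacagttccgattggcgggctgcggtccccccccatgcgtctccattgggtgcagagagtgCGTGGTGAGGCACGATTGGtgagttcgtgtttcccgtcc
Calr, chr8:84847055-84847113, minus strand: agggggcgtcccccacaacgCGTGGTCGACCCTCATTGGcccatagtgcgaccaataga
Creld2, chr15:88819500-88819558, plus strand: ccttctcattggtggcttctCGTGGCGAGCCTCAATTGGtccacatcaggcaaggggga
Herpud1, chr8:94386297-94386407, plus strand: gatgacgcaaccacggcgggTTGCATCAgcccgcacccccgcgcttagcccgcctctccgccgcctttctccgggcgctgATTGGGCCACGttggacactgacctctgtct

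**Figure D4:**
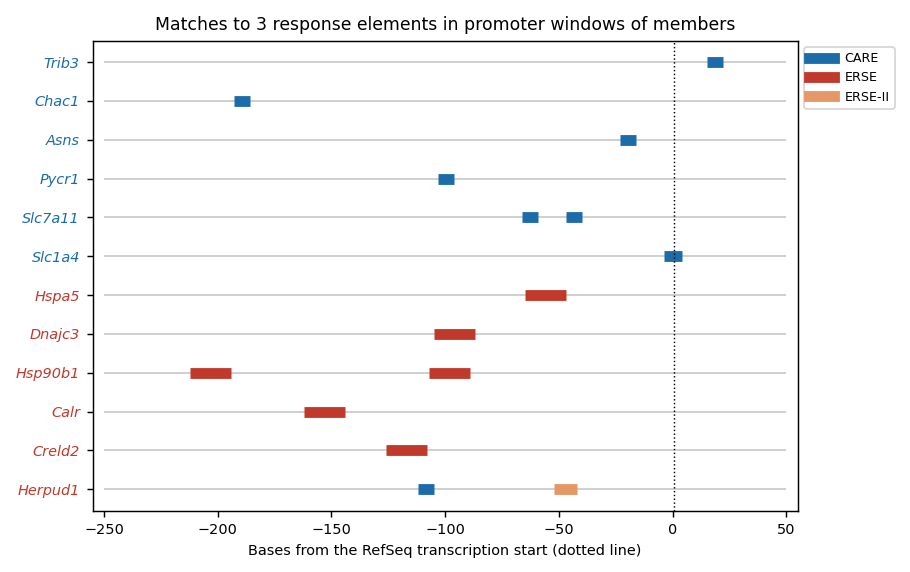
Position of each match to CARE, ERSE and ERSE-II, in bases from the RefSeq transcription start, in the 12 genes with a match; supply genes are named in blue and response genes in red. CARE falls in the supply genes and Herpud1, and ERSE in 5 ER chaperones.

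Other genes of the same pathways, taken from 10 further lists with 177 genes in all, were counted in the same way. These lists too were chosen with earlier results of these data known. Of 158 tested, 8 rose and 4 fell by the authors' deposited table, 7.59% together, beside 6.52% of all tested rows. At an unadjusted p under 0.05 by Cuffdiff, 22 of the 158 differed, beside 15.8% of all tested rows.

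The list of regulators and other genes around Atf4 held the most calls, 2 higher and 2 lower of 17 tested. That is 23.5%, beside 6.52% of all tested rows. The list was chosen with earlier results of these data known, so the share describes its genes only. Nupr1, a small stress-induced chromatin protein, rose from 5.78 to 12.4 FPKM (log2 ratio 1.10 ± 0.33), and Ddit4, an inhibitor of mTORC1 induced by several stresses, from 99.6 to 146 FPKM (0.55 ± 0.20). Stc2, a secreted glycoprotein of ER stress, fell from 3.48 to 1.92 FPKM (-0.86 ± 0.32), and Txnip, an inhibitor of thioredoxin and of glucose uptake whose locus holds another row, from 67.8 to 46.2 FPKM (-0.55 ± 0.20). The authors' deposited table lists an adjusted p of 0.0019 for Nupr1 and Txnip, 0.0059 for Ddit4 and 0.0071 for Stc2. The first value is the smallest that Cuffdiff gave any row, so it does not rank the genes that share it. The list's median log2 ratio was 0.07, with 10 of 17 ratios above 1.

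Amino acid metabolism and transport outside the 40 genes held calls in both directions. Gpt, the cytosolic counterpart of Gpt2, rose from 2.28 to 4.13 FPKM (log2 ratio 0.86 ± 0.32, adjusted p 0.0082 by the authors' deposited table), and Prodh, which breaks proline down, fell from 2.67 to 1.41 FPKM (-0.92 ± 0.33, adjusted p 0.0047 by the authors' deposited table). They were the 2 calls (14.3%) among 14 tested enzymes of other amino acid synthesis and breakdown, beside 6.52% of all tested rows. Both alanine aminotransferases, Gpt and Gpt2, were therefore higher with SAA1. Of 12 tested further transporters 1 (8.33%) was called, beside the same 6.52%. Slc6a9, the glycine carrier GLYT1, rose from 3.23 to 5.77 FPKM (0.84 ± 0.26) in a locus shared with another row.

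No enzyme of the one-carbon list outside the 40 genes was called among 11 tested by Cuffdiff, beside 6.52% of all tested rows. Of these, 2 had an unadjusted p under 0.05, and Aldh1l2, a mitochondrial folate enzyme, had the smallest, at 1.46 and 2.03 FPKM. The synthetases that load amino acids onto tRNA, many of them known ATF4 targets, had 0 calls of 20 tested and 1 unadjusted p under 0.05 (Cars, at 50.2 and 62.2 FPKM). Their log2 ratios were bounded by -0.10 and 0.31, with a median of 0.07. Among 18 tested genes of amino acid sensing by mTORC1, 2 (11.1%) were called, both higher, beside 6.52% of all tested rows. Rragd, a Rag GTPase of that pathway, rose from 1.47 to 3.13 FPKM (1.10 ± 0.27), and Nprl2, a subunit of its inhibitor GATOR1, from 10.97 to 17.1 FPKM (0.64 ± 0.24).

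ER lists outside the 40 genes had median log2 ratios between -0.07 and 0.02, while single genes in them were called. Of 23 tested further chaperones and isomerases, 1 (4.35%) was called, beside 6.52% of all tested rows. Fkbp11, a proline isomerase of secretory cells, rose from 2.78 to 6.31 FPKM (log2 ratio 1.18 ± 0.42, adjusted p 0.0071 by the authors' deposited table). The list's median was -0.03 and 6 of its 23 ratios were above 1. Degradation factors had 0 calls of 16 tested, with 0 at an unadjusted p under 0.05 by Cuffdiff. Derl2, a factor of the export channel, had the smallest p of that list, at 27.6 and 23.7 FPKM. The list of further sensors and factors, which also holds Bak1 of the BCL-2 family, had 0 calls of 11. Bak1, at 55.6 and 44.4 FPKM, was the only one at that unadjusted level. Among 16 tested genes of ER translocation, 12.5% were called, beside 6.52% of all tested rows. Sec11c, a signal peptidase subunit, rose from 116 to 157 FPKM (0.43 ± 0.21), and Sec61g, a subunit of the translocon, fell from 6.30 to 3.44 FPKM (-0.87 ± 0.39). The authors' deposited table gives them adjusted p-values of 0.044 and 0.036.

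**Figure D5:**
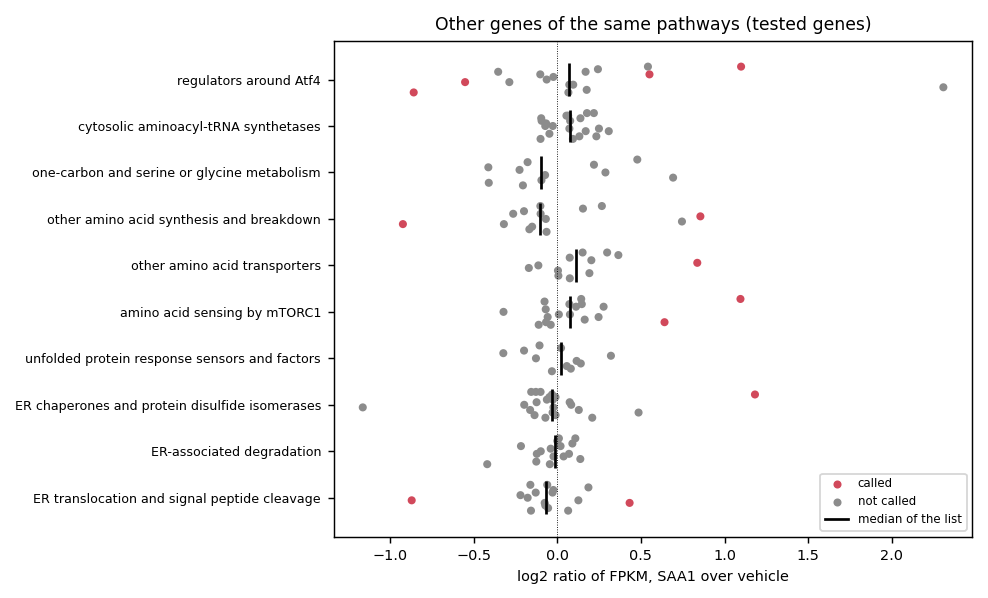
The log2 ratio of SAA1 over vehicle for the tested genes of 10 lists outside the 40 genes (points, red where called), with each list's median as a bar. Medians lie between -0.10 and 0.11, and the 12 calls are spread over 6 lists.

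By position on mm10, with starts counted from 1, the called genes lie at chr8:85492617-85527558 (Gpt2), chr11:20302180-20332713 (Slc1a4), chr15:96687392-96699698 (Slc38a2) and chr5:129765558-129787253 (Psph). Each interval is the whole gene with its exons, introns and untranslated regions, and the value sums over its transcripts. None of these 4 intervals overlaps another row of the table. GENCODE lists processed pseudogenes named after Calr and Phgdh, so reads of those genes may be split with the copies.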

How the data were processed

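RNA of Th17 cells was sequenced from 4 TruSeq libraries, 2 vehicle and 2 SAA1 by their titles, per the labels' protocols. TopHat2, Cuffdiff and the builds mm9 and mm10 are named, per the submitters' processing notes. The sources used here give no version and no setting. The table, in Cuffdiff's layout per the file headers, holds 1 deposited FPKM value per group, a deposited test statistic (a score, log ratio over SE), and the p-value and adjusted p of the authors' Cuffdiff run. Of 23356 rows, 11481 were tested. Depth is unknown.

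With pandas 2.3.3 and SciPy 1.17.1, log2 ratios were recomputed from FPKM, and the SE was taken as the ratio over the statistic. The deposited adjusted p equalled a Benjamini-Hochberg adjustment over tested rows within 5.23e-07. Medians over lists in the alternatives used a pseudocount of 0.1 FPKM and members that reached 1 FPKM in a group. The code for the Benjamini-Hochberg adjustment and for the SE was tested on simulated data, and that for the promoter search was not. Loci of all 40 members overlapped RefSeq positions on GRCm38, the assembly of mm10, 29 with the same start. In 31 of 35 promoter windows the bases after the start were found in a GENCODE transcript on the gene's strand.

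Members, roles and lists were chosen with earlier results of these data known. Named are all members and, from each further list, up to 5 called genes by smallest adjusted p, or the gene with the smallest p where none was called. The design foresaw limma for values per library, which the table does not give. Promoters were searched for CARE, ERSE and ERSE-II. Alternatives changed the threshold, a fold minimum, the rows adjusted over, the source of p, the pseudocount, the expression minimum and the centring.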

Additional observations from a re-analysis of the deposited data

How the results depend on the processing

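The count of 4 members called higher was 2 (Gpt2 and Slc1a4) at an adjusted p under 0.01, 6 at 0.1, and 1 (Gpt2) with a fold of at least 1.5 as well. These counts are 5%, 15% and 2.5% of the members, beside 3.80%, 8.81% and 4.69% of all tested rows. With the fold minimum the members' share was thus below that of all rows. The count was 0 with a normal p of the test statistic, where 247 of 11403 rows (2.17%) were called. It remained 4, with the same genes, when the adjustment covered rows with at least 1 FPKM or left out rows that share a locus. The count called lower was 0 in each of these. Medians kept their sign with a pseudocount of 1 FPKM, a minimum of 5 FPKM, no minimum, or centring on the median of expressed rows, and ranged from 0.14 to 0.16 for amino acid supply and from -0.08 to -0.06 for the unfolded protein response. No gene's log2 ratio changed sign over 80 recomputed values, but these settings could not have changed one. Adding the same amount to both groups keeps the sign. Centring subtracts -0.02, and the least negative ratio was -0.07, for Edem1. A pseudocount of 1 FPKM moved 3 members under 2 FPKM by over 1.5 times, Slc43a1 from -0.56 to -0.34, Pycr1 from 0.28 to 0.16 and Slc7a11 from -0.25 to -0.13. Centring, which subtracts a median of -0.02, did so for 5 ratios near 0 (Atf4, Asns, Slc3a2, Xbp1 and Dnajc3). No paired analysis was possible because the table gives 1 value per group and none per library, and for the same reason no replicate could be left out. The number of reads is unknown, so what depth limits could not be computed.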
